A study of Mus musculus with 3 samples.

Results

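Head-to-head gene pairs are neighbouring genes on opposite strands whose transcripts start close together and run away from each other, so that 1 stretch of DNA lies in front of both. They were found among the first exons listed in 3 RNA sequencing libraries of normal mouse liver. A pair was taken when a minus-strand and a plus-strand first exon carried different gene identifiers, pointed away from each other and had 5′ ends at most 1000 bases apart. Of 23032 first exons in the 3 libraries together, 2037 (8.84%) stood in 1320 such exon pairs. Grouped by gene, these made 766 gene pairs with 1490 of the 12027 genes that had a first exon (12.4%), and 10 genes stood in more than 1 pair. Within a single library, both sides were listed for 561 gene pairs in replicate 1, 623 in replicate 2 and 613 in replicate 3.

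The libraries are the normal liver group of a study on driver genes in hepatocellular carcinoma. All 3 are labelled WT, healthy, male and C57BL/6, an inbred laboratory strain, with no treatment and no age given. Nothing in the labels ties a replicate to an animal of its own, so the spread between libraries may be technical, and p-values measure only that spread. The tumours were not analysed here, so the comparisons below are between the 2 sides of a pair and between close and distant pairs.

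Values are FPKM (read fragments per length of transcript and per size of the library), computed by the authors. Each listed first exon carries a value, and depth is unknown because the tables hold no counts. For some pairs, first exons and last exons gave the same difference of the sides, for example 1.02162 for Bhmt2/Dmgdh. The FPKM listed for an exon may therefore be that of its whole transcript and not a measure of the exon alone. A side is the sum over the first exons of a gene that face the partner within the limit. Positions are on GRCm38, since 77.3% of the first exons had exactly the position of an annotated first exon in GENCODE M21. The library protocol does not say that strand was kept, so reads from overlapping opposite transcripts may not have been told apart. In bulk tissue, fewer cells of a type and less RNA per cell cannot be told apart, and the 2 sides of a pair may also be used in different cells. Hepatocyte markers were listed for 6 of 7 genes (Apoa2 had no listed first exon), with summed first-exon values between 33127 and 36985 FPKM. The summed markers of the other liver cells were far lower, at 139 FPKM or less for any type in any library, and no marker gene of any cell type stood in a pair.

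Promoters of this kind are usually rich in G and C, carry a CpG island and lack a TATA box, the element that places the start of many tissue-specific genes. Transcription runs outward from a shared nucleosome-free stretch, and the sides may be coupled or quite unequal. The arrangement is known for housekeeping genes such as those of DNA repair, mitochondria and protein synthesis. Many such promoters face a noncoding RNA in place of a second coding gene.

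**Figure D1:**
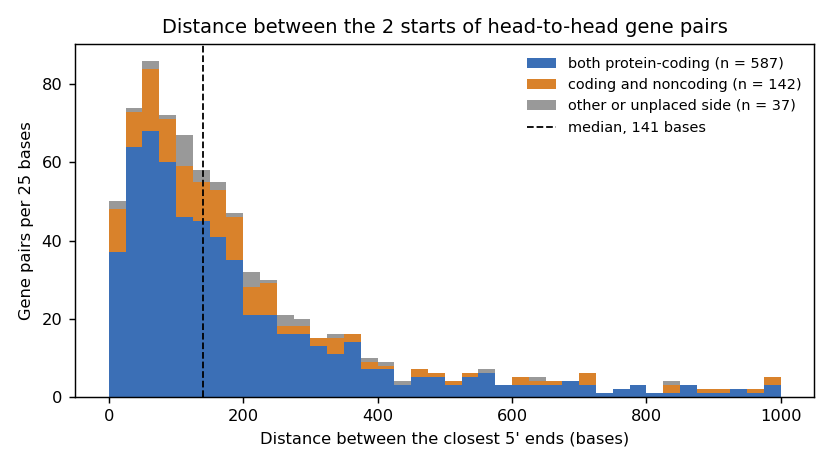
Number of head-to-head gene pairs per 25 bases of distance between their closest 5′ ends, split by gene type, with the median marked. The distances pile up below 300 bases, where 612 of 766 pairs lie, and thin out towards the limit of 1000 bases.

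The 5′ ends were mostly far closer than the limit. The median distance was 141 bases (quartiles 67.25 and 254, range 2 to 997), 286 pairs (37.3%) were within 100 bases, and 612 (79.9%) within 300 bases. At distances over 500 bases there were 71 pairs. Both genes were protein-coding in 587 pairs, a coding gene faced a noncoding one in 142, 5 were of other kinds, and 32 had a side that could not be given a gene. The tables held 47.0% of what the annotation offers: of 1233 coding head-to-head pairs in GENCODE, 580 were found, and both genes had some first exon in 762. The tables listed more plus-strand than minus-strand first exons (13968 and 9064) although the annotation holds nearly equal numbers (67423 and 66369), so a missing side is not evidence of a silent promoter.

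The sequence between the 2 starts is shown for the pairs on which the results below turn: textbook pairs, the most abundant pairs, and pairs that illustrate a motif. Each line gives the plus strand 5′ to 3′ from RefSeq (GRCm38.p6). The start of the minus-strand gene, named second, lies just left of it and the start of the plus-strand gene, named first, just right. Capitals mark matches on either strand to the TATA box (TATAAA), the CCAAT box (CCAAT), the GC box of Sp-type factors (GGGCGG), and the motifs searched for NRF1 (the palindrome in capitals in the line of Etfdh), ETS factors such as GABP (CCGGAAGT), YY1 (AAGATGGCG) and HNF4A (CAAAGTCCA). A match on the opposite strand reads as its reverse complement, for example ATTGG for the CCAAT box.
Hspe1 and Hspd1, chr1:55088025-55088131: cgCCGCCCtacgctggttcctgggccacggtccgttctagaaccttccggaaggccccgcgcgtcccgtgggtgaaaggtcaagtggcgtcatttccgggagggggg
Hadhb and Hadha, chr5:30154963-30155247: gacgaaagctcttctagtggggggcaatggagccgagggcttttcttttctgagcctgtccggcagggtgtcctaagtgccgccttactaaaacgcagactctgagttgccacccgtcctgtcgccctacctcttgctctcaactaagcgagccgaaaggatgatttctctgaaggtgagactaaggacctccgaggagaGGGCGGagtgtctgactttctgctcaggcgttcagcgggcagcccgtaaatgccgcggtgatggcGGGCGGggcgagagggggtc
Dmgdh and Bhmt2, chr13:93674303-93674432: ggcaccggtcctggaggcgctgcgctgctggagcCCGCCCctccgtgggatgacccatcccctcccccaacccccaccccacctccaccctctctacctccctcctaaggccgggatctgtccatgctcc
Timm8b and Sdhd, chr9:50603813-50603909: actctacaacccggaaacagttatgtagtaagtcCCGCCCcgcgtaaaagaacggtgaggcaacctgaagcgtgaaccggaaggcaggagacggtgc
Phb2 and Emg1, chr6:124712179-124712335: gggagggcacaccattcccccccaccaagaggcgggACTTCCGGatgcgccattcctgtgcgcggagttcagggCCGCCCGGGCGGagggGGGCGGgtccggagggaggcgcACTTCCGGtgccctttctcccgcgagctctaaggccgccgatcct
Ssr4 and Idh3g, chrX:73786898-73787027: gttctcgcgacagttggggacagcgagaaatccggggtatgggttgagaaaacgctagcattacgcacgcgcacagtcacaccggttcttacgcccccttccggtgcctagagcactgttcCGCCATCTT
Paics and Ppat, chr5:76951166-76951306: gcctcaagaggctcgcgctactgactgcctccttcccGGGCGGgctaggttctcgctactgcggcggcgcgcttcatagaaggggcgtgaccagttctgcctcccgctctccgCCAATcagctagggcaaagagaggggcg
Sars2 and Mrps12, chr7:28741821-28741991: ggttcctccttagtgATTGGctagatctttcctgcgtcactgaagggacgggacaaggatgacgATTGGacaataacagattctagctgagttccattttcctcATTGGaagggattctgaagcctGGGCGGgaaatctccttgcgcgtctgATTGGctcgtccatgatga
Afmid and Tk1, chr11:117825818-117825923: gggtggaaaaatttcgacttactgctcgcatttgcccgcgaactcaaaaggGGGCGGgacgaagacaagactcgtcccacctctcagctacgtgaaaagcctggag
Bccip and Uros, chr7:133709282-133709332: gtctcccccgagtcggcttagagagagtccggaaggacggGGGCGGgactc
Tap1 and Psmb9, chr17:34187354-34187552: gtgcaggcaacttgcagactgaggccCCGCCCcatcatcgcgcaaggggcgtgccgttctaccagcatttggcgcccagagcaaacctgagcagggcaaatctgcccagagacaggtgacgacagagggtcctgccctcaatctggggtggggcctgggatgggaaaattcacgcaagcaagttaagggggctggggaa
Ndufa7 and Rps28, chr17:33824485-33824590: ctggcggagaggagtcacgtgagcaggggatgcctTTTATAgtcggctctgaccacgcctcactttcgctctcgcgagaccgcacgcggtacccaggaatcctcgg
Kctd2 and Atp5h, chr11:115419918-115420149: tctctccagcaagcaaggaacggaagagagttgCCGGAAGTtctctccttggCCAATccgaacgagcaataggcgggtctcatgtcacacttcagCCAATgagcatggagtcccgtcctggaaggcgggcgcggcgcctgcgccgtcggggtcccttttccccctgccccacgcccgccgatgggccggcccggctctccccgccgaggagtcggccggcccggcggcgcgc
4930579G24Rik and Etfdh, chr3:79628864-79629078: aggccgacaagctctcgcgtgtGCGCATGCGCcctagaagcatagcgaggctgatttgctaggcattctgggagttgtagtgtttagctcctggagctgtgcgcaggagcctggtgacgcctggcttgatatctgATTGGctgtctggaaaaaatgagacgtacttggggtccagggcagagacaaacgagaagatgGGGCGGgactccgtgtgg

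In these lines GC boxes were the most frequent match, the starts of Phb2 and Emg1 had ETS matches beside them, those of Kctd2 and Atp5h ETS and CCAAT matches, and those of Sars2 and Mrps12 several CCAAT boxes. Ssr4 and Idh3g had a YY1 match just before the Ssr4 start, Ndufa7 and Rps28 had a TATA box, and 4930579G24Rik and Etfdh had the palindromic NRF1 motif. Over all pairs, RefSeq promoter windows covered every base between the ends for 503 of 766. Of the 394 with at least 50 bases, 221 (56.1%) held GGGCGG, 157 (39.8%) CCAAT, 41 (10.4%) the ETS motif and 10 (2.54%) TATAAA, while 87 held none of the 7 motifs. Both sides reached 1 FPKM in 27 of the 41 pairs with the ETS motif, 122 of the 221 with a GC box and 84 of the 157 with a CCAAT box, beside 226 of all 394. A match is a description of the letters and does not show that a factor binds.

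Windows of 300 bases, 250 before to 50 after a RefSeq start, were compared for the starts that matched a listed first exon within 50 bases. Such a start was found for 1081 of the 2037 first exons in pairs (53.1%) and for 8262 of all 23032 (35.9%). The comparison thus covers only part of the first exons, and a larger part of those in pairs. The 914 windows of head-to-head pairs had a median G+C content of 63.3% and a median CpG observed-to-expected ratio of 0.856, and 88.9% were above a ratio of 0.6. The 6399 windows of other listed first exons had 60%, 0.735 and 67.1%, and all 32851 promoters of the table had 52.7%, 0.384 and 35.8%. The TATA box stood in 3.28% of head-to-head windows, against 8.06% of other listed ones and 13.6% of all promoters. The ETS motif stood in 15.8% of head-to-head windows, against 8.05% and 3.89%, and the YY1 motif in 7.11%, against 3.14% and 1.40%. Taken as a ratio of shares, though not in percentage points for GGGCGG, 3 motifs differed less from the other listed promoters. These were GGGCGG (69.5%, 62.4% and 35.7%), CCAAT (42.6%, 39.2% and 37.4%) and NRF1 (2.52%, 2.05% and 0.971%). The HNF4A-type motif, named for a factor central to hepatocytes, stood in 0.438% of head-to-head windows, against 0.734% and 0.475%. These shares were not tested, and facing windows of a pair overlap, so they are not independent. The median distance between the ends of a pair was 141 bases, so many head-to-head windows also held the start of the partner. How much this adds to their motif shares was not tested.

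**Figure D2:**
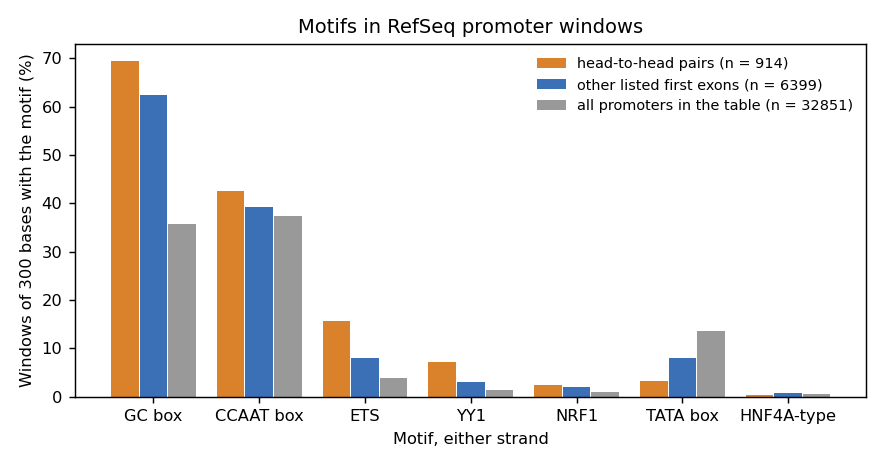
Share of 300-base RefSeq promoter windows that hold each motif on either strand, for head-to-head pairs, other listed first exons and all promoters of the table. The ETS and YY1 bars are tallest in head-to-head pairs, at 15.8% and 7.11%, and the TATA bar is lowest there, at 3.28%. Many head-to-head windows also hold the start of the partner.

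More of the protein-coding genes in pairs than of the other coding genes reached 1 FPKM, and fewer reached 100 FPKM. Of 1343 coding genes in pairs, 84.4% averaged 1 FPKM or more, with a median of 5.10 FPKM, against 73.6% and 3.53 FPKM for the 9849 others. Genes in pairs had a median of 2 listed first exons, against 1 for the others, and levels were summed over them. By the highest single first exon of a gene, 82.5% of the genes in pairs and 71.2% of the others reached 1 FPKM, with medians of 4.40 and 3.12 FPKM. At 100 FPKM or more there were 2.83% of the genes in pairs and 3.89% of the others. Only 4 of the 100 genes with the highest first-exon values stood in a pair: Dbi, Pzp, Rida and Tpt1. The spread between libraries of genes at 1 to 100 FPKM was alike, with a median SD of log2 values of 0.22 for 1095 genes in pairs and 0.23 for 6868 others. These shares describe the listed genes and were not tested.

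Both sides had a mean of at least 1 FPKM in 408 of the 766 pairs (53.3%), against 271 of 554 divergent pairs whose ends were over 1000 and up to 10000 bases apart (48.9%). In 287 head-to-head pairs 1 side reached 1 FPKM and the other did not, and in 71 neither did. Both sides were at 10 FPKM or more in 43 pairs. The median of the higher side was 7.45 FPKM and that of the lower side 1.19 FPKM, against 7.93 and 0.923 FPKM in the distant pairs. Both sides were listed in all 3 libraries for 468 pairs, and in 23 they were never listed in the same library.

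Most head-to-head pairs were called unequal, as were most distant pairs, and the shares were not tested against each other. The difference of log2(FPKM + 1), plus-strand side minus minus-strand side, was tested with limma over the 3 libraries in all divergent pairs up to 10000 bases apart with a mean of 1 FPKM on at least 1 side, with Benjamini-Hochberg adjustment at 0.05. Over all 1205 tested pairs 77.7% were called, 34% with the plus side higher and 43.7% with the minus side higher. Of the 695 head-to-head pairs tested, 530 (76.3%) were called, 228 (32.8%) with the plus side higher and 302 (43.5%) with the minus side higher, beside 79.6%, 35.7% and 43.9% of the 510 distant pairs. Calls with a difference of at least 1 on the log2 scale made up 66.3% of the head-to-head pairs tested (461), against 72.4% of the distant pairs (369), and those of at least 3 made up 22.3% (155), against 28.4% (145). Since 287 tested head-to-head pairs passed the filter through 1 side alone, their sides had to differ, and these shares are no result about the members. For such pairs and for those named as most unequal, the difference is given below without a p-value.

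Among the 408 pairs with both sides at 1 FPKM or more, 281 (68.9%) were called, against 193 of 271 distant pairs (71.2%), and the same side was higher in all 3 libraries in 341 (83.6%), against 223 (82.3%), so both shares were near those of the distant pairs. The median absolute difference was 1.24, against 1.42 in the distant pairs, and 178 pairs (43.6%) lay within 1 log2 unit, against 38% of the distant pairs. The SD of a pair's difference between libraries had a median of 0.36, below the median absolute difference of 1.24. How many pairs had a difference larger than their own SD was not counted. Of the 127 pairs without a call, 64 had a 95% interval inside -1 to 1, and for the rest the interval allowed a larger difference. The medians were alike over the range of distances. The median absolute difference was 1.23 in 162 pairs within 100 bases, 1.16 in 171 pairs at over 100 and up to 300 bases, and 1.26 in 75 pairs at over 300 and up to 1000 bases.

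Across pairs, the correlation between the levels of the sides was close to 0. Pearson's r between the plus and minus sides over 695 pairs was -0.0948, -0.0843 and -0.103 in replicates 1, 2 and 3. With only the 408 pairs above 1 FPKM on both sides the mean r was 0.0283, and with all 766 pairs 0.0293, so its sign followed the filter. In the distant pairs r was -0.189, -0.237 and -0.208, with a mean of -0.211, and the mean was -0.0701 with both sides above 1 FPKM and -0.108 with no filter. These are descriptions over pairs that share a library, with no test. The same library was the highest on both sides in 236 of 695 head-to-head pairs (34.0%), against 36.3% of distant pairs. Unrelated sides would give 33.3% if each library were equally often the highest, which was not checked. Because the pairs share the libraries and are not independent, this share was not tested.

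**Figure D3:**
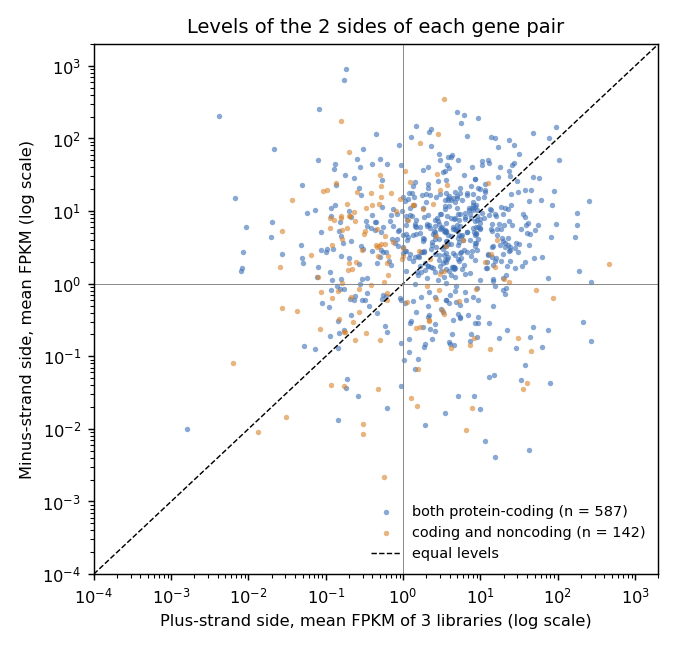
Mean FPKM of the plus-strand side (x axis) and the minus-strand side (y axis) of each head-to-head pair over 3 libraries, on log scales, for pairs of coding genes and pairs of a coding and a noncoding gene. Points lie far to both sides of the dashed line of equal levels, and those with both sides at 1 FPKM or more, above and to the right of the grey lines, number 408 over all gene types.

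Ranked by the weaker of the sides, the highest pair was the chaperonin pair of mitochondria: Hspe1, the Hsp10 cochaperonin, and Hspd1, the Hsp60 chaperonin, with starts 108 bases apart (chromosome 1, 55088024 and 55088132). Hspe1 had 111, 88.0 and 82.0 FPKM in replicates 1, 2 and 3, against 124, 155 and 148 FPKM for Hspd1. Hspd1 was the higher in every library, with a plus minus minus difference of -0.61 (SE 0.19, adjusted p = 0.0335) on the log2 scale by limma, and the call was lost without replicate 2 (-0.50) or 3 (-0.49) and without the variance trend (adjusted p = 0.0619). Hadhb and Hadha, the beta and alpha subunits of the mitochondrial trifunctional protein of fatty acid oxidation, are 286 bases apart (chromosome 5, 30154962 and 30155248). Hadhb had 15.4, 50.8 and 27.6 FPKM, against 45.8, 79.2 and 57.8 FPKM for Hadha. Both were lowest in replicate 1 and highest in replicate 2, and Hadha was the higher in each, with a difference of -1.06 (SE 0.22, adjusted p = 0.00776) by limma that missed the threshold without replicate 3 (-1.07).

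Dmgdh and Bhmt2 both belong to methyl group metabolism, and their starts are 131 bases apart (chromosome 13, 93674302 and 93674433). Dmgdh, the dimethylglycine dehydrogenase, had 89.3, 107 and 118 FPKM, against 43.2, 58.1 and 52.3 FPKM for Bhmt2, a homocysteine methyltransferase. The groups of values did not overlap and Dmgdh was higher by 1.02 (SE 0.14, adjusted p = 0.00181) by limma. Timm8b, a small chaperone of mitochondrial protein import, had 52.0, 46.2 and 46.1 FPKM, against 112, 125 and 125 FPKM for Sdhd, a membrane subunit of succinate dehydrogenase. Sdhd was above Timm8b in every library, with a difference of -1.31 (SE 0.15, adjusted p = 0.000873) by limma.

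Btd, the biotin-recycling biotinidase, had 37.2, 26.1 and 17.5 FPKM, against 61.8, 107 and 74.8 FPKM for Hacl1, the peroxisomal lyase of fatty acid alpha-oxidation. Hacl1 was the higher throughout, with a difference of -1.58 (SE 0.31, adjusted p = 0.00719) by limma (-1.35 without replicate 3, where it missed the threshold with an adjusted p of 0.0556). Chmp5, a subunit of the ESCRT-III membrane machinery, averaged 27.1 ± 2.61 FPKM, against 46.5 ± 1.12 FPKM (SD, n = 3 each) for Bag1, a cochaperone of Hsp70, a difference of -0.76 (SE 0.16, adjusted p = 0.00838) by limma that missed the threshold without replicate 3 (adjusted p = 0.0626).

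For 4 of the 10 pairs with the highest weaker side, the following 3 and Ssr4 with Idh3g, the order of the sides depended on which exons were summed. Eef1b2, a translation elongation factor subunit, had 49.8, 49.0 and 43.3 FPKM, against 25.7, 37.5 and 24.8 FPKM for Ndufs1, the largest subunit of complex I, whose start is 3 bases away. The difference of 0.70 (SE 0.18, adjusted p = 0.0175) by limma lost its call without replicate 1 or 3 and was -4.28 with last exons. Phb2, a prohibitin of the inner mitochondrial membrane, had 69.9, 33.1 and 67.6 FPKM, against 33.3, 25.5 and 26.8 FPKM for Emg1, a methyltransferase of ribosome assembly. Their difference of 0.90 (SE 0.23, adjusted p = 0.0167) by limma lost its call without replicate 1 or 3 and was -4.82 with last exons. Tmem176a, a membrane protein, had 106, 56.9 and 69.5 FPKM, against 145, 60.2 and 100.02 FPKM for its relative Tmem176b on the other side. Replicate 1 was the highest and replicate 2 the lowest on both sides. Their difference of -0.35 (SE 0.16, adjusted p = 0.0928) was not called by limma, was called without replicate 2 (-0.48) and was 4.16 with the closest pair of exons alone.

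**Figure D4:**
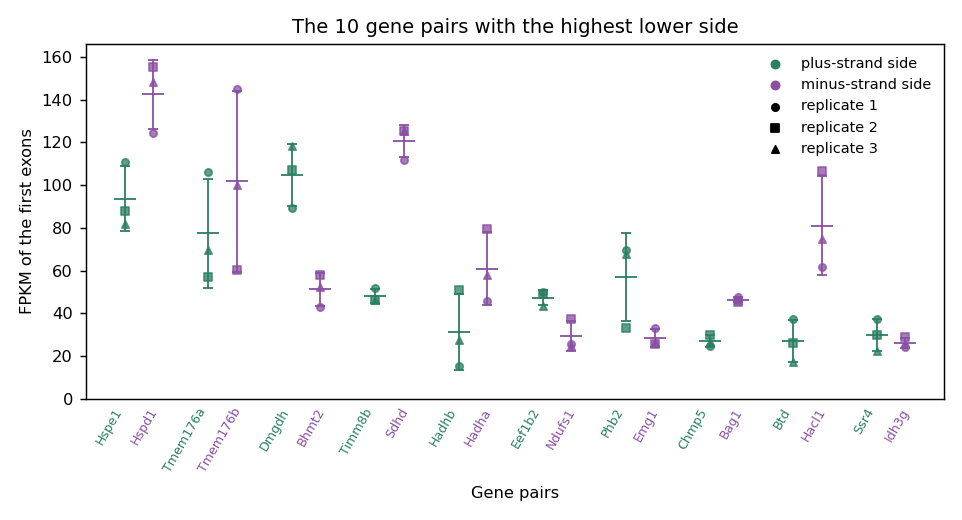
FPKM of each side in each library for the 10 gene pairs with the highest lower side, with the plus-strand gene left of the minus-strand gene, and with mean and SD (n = 3) as bars. The Hspe1 and Hspd1 pair is highest by its lower side at 93.6 and 143 FPKM, and the sides of Ssr4 and Idh3g overlap.

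The following pairs were among the 5 closest in level of those with both sides at 10 FPKM or more in every library. They were chosen for a small difference, so the lack of a call in the main fit is no result about them. Ssr4, of the translocon-associated complex of the endoplasmic reticulum, had 37.4, 29.7 and 22.4 FPKM, against 24.1, 28.7 and 25.8 FPKM for Idh3g, a subunit of mitochondrial isocitrate dehydrogenase. The values overlapped and the difference was 0.15 (95% interval -0.41 to 0.71, limma adjusted p = 0.535). Its sign turned without replicate 1 (-0.076), with all first exons (-0.022) and with last exons (-1.56). Rnf167, a ubiquitin ligase, had 26.4, 21.2 and 23.8 FPKM, against 30.8, 27.5 and 31.8 FPKM for the oxoglutarate carrier Slc25a11, the higher in every library, with an interval of -0.74 to 0.09. Kctd2 and the ATP synthase subunit gene Atp5h differed by -0.47 (-0.91 to -0.02, limma adjusted p = 0.055), which became a call with all first exons (-0.51) and with last exons (-3.53). Mrpl14 and Tmem63b, a mitochondrial ribosomal protein and a membrane channel, differed by 0.53 (-0.26 to 1.31) and by 5.2, with a call, in last exons.

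Of 24 pairs known from textbooks and earlier work on bidirectional promoters, 12 were members. Of the other 12, 6 had listed first exons that overlap at their 5′ ends, with the plus end minus the minus end between -362 and -21 bases, Trp53 and Wrap53 (-39) among them. The starts of Psmb1 and Tbp were 1612 bases apart, outside the limit, and Npat, Brca1 and Dlg4 had no listed first exon. The listed ends of Prkdc and Mcm4 and of Dedd and Nit1 were not near each other.

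Some textbook pairs join genes with related products. Paics and Ppat, which code for enzymes of purine synthesis, share a start region of 142 bases (chromosome 5, 76951165 and 76951307). Paics had 21.6, 54.9 and 49.7 FPKM, against 2.97, 2.70 and 4.71 FPKM for Ppat, which makes the first committed step. Paics exceeded Ppat in every library, by 3.19 (SE 0.31, adjusted p = 0.000526) by limma, but the closest pair of exons alone gave -1.50 (adjusted p = 0.045). Paics had 4 first exons in the pair. Sars2, the mitochondrial seryl-tRNA synthetase, had 3.04, 4.04 and 3.72 FPKM, against 23.2, 29.7 and 28.4 FPKM for the mitochondrial ribosomal protein Mrps12, a difference of -2.61 (SE 0.17, adjusted p = 0.000137) by limma without overlap. Tap1, the peptide transporter of antigen presentation, had 7.16, 5.16 and 7.08 FPKM, against 0.528, 0.130 and 1.15 FPKM for the immunoproteasome subunit Psmb9, a difference of 2.26 (SE 0.22) that was -0.29 with all first exons and -3.36 with last exons.

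Other textbook pairs join genes of unlike function. Afmid, an enzyme of tryptophan breakdown, had 35.8, 32.4 and 33.3 FPKM, against 6.69, 6.27 and 4.01 FPKM for the thymidine kinase Tk1, whose synthesis is tied to cell division. Afmid was higher in every library, by 2.41 (SE 0.20, adjusted p = 0.000337) by limma. Bccip, a partner of BRCA2, had 45.7, 34.7 and 33.6 FPKM, against 9.04, 9.98 and 6.21 FPKM for Uros, the uroporphyrinogen synthase of haem synthesis, a difference of 2.06 (SE 0.20, adjusted p = 0.000536) by limma. Son, a nuclear speckle protein, averaged 14.1 ± 1.15 FPKM, against 6.60 ± 1.13 FPKM for Gart, another purine enzyme (SD, n = 3 each), a difference of 1.00 (SE 0.19, adjusted p = 0.0066) by limma.

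Serpini1, the serpin of neurons, was listed at 0.0109, 0 and 0.0167 FPKM, against 5.50, 6.20 and 6.54 FPKM for Pdcd10, an adaptor protein of vascular integrity on the minus side. The plus side was thus at or near 0 in each library. The acyltransferase gene Agpat1 was listed at 0, 0.120 and 0.566 FPKM for the exons that face Rnf5, against 12.6, 37.4 and 34.8 FPKM for that ubiquitin ligase, with a difference of -4.46, and last exons gave the opposite sign (2.22). Surf2 had 9.27, 4.32 and 5.28 FPKM, against 9.001, 9.95 and 9.11 FPKM for Surf1, an assembly factor of cytochrome oxidase. The difference of -0.56 (SE 0.26, adjusted p = 0.104) was not called by limma and was called without replicate 1 (-0.86) and for the closest exons (-0.96).

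Several of the most unequal pairs set a gene of hepatocyte metabolism or another well-expressed gene against a partner near 0. Glud1, the glutamate dehydrogenase of mitochondria, had 239, 289 and 269 FPKM, against 0, 1.70 and 1.47 FPKM for Shld2, a subunit of the shieldin complex of DNA repair. Reep6, a membrane-shaping protein, had 212, 187 and 169.7 FPKM, against 2.72, 0.00528 and 1.69 FPKM for the germ cell protease Pcsk4. The differences were 7.14 (SE 0.29) and 6.46 (SE 0.39), and no value of the weaker side came near the stronger one.

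Atp5a1, the alpha subunit of ATP synthase, had 228, 163 and 250.2 FPKM, against 0, 0.407 and 0.491 FPKM for Haus1, a subunit of the spindle complex augmin, a difference of 7.37 (SE 0.25). Tpt1, the translationally controlled tumour protein, had 545, 452 and 386 FPKM, against 0.813, 2.80 and 2.04 FPKM for the antisense RNA Gm4285. Their difference was 7.38 (SE 0.31) in first exons and -1.13 in last exons.

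With the minus side higher, Pop1, a subunit of RNase P, was listed at 0, 0.512 and 0 FPKM, against 819, 733 and 389 FPKM for Rida, an imine deaminase abundant in liver. Trim28, a corepressor, was listed at 0, 0.0789 and 0.163 FPKM for the exon that faces Slc27a5, against 213, 263 and 286 FPKM for that bile acid ligase. Both partners are widely used genes, and the difference for Trim28 was -7.88 for that exon and -4.10 with all its first exons, and that for Pop1 was -9.07 and -8.0. Ttc41 was listed at 0.0126, 0 and 0 FPKM, against 198, 192 and 217 FPKM for Hsp90b1, the Hsp90 of the endoplasmic reticulum. The RNA gene 1700122E12Rik was listed at 0.333, 0.133 and 0 FPKM, against 161, 199.9 and 168 FPKM for Calr, a chaperone of the same compartment. The differences were -7.66 (SE 0.17) and -7.26 (SE 0.20).

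The largest difference belonged to 3110009E18Rik, with 0.240, 0.144 and 0.166 FPKM, against 933, 987 and 806 FPKM for Dbi, the acyl-CoA binding protein. It was -9.58 (SE 0.16) over 4 Dbi first exons, and -0.81 for the closest exon alone, so most Dbi signal came from starts farther from the partner. Chosen after its values were seen, the RNA gene Gm36172 had 3.52, 3.40 and 3.23 FPKM, against 388, 312 and 354 FPKM for Arg1, the arginase of the urea cycle, with starts 182 bases apart and a difference of -6.32 (SE 0.15).

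The shortest pairs included some of very unequal levels. Starts lay 3 bases apart for Nop9, a ribosome assembly factor, at 7.69 ± 0.538 FPKM, against 40.9 ± 6.22 FPKM for the dehydrogenase Dhrs1 (SD, n = 3 each), a difference of -2.26 (SE 0.20, adjusted p = 0.000362) by limma. Ccdc159 had 2.38, 1.30 and 3.28 FPKM, against 176, 121 and 109.6 FPKM for Tmem205, a membrane protein 9 bases away, a difference of -5.38 (SE 0.27, adjusted p = 6.4e-05) by limma. Exosc7, an RNA exosome subunit, averaged 12.2 ± 2.91 FPKM, against 2.01 ± 0.390 FPKM for the palmitoyltransferase Zdhhc3 at 10 bases, a difference of 2.12 (SE 0.26, adjusted p = 0.00112) by limma.

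At the edge of the rule, the widest pairs inside the limit with both sides above 1 FPKM were Txndc12 and Btf3l4 (987 bases), Hectd3 and Urod (953 bases) and Trip10 and Gpr108 (945 bases). Their plus and minus sides averaged 20.6 ± 1.04 and 3.16 ± 0.482 FPKM, 9.77 ± 0.966 and 20.3 ± 5.38 FPKM, and 2.92 ± 0.619 and 6.53 ± 1.16 FPKM (SD, n = 3). Just outside it were Trmt1 and Nacc1 (1004 bases; 7.57 ± 1.45 and 5.78 ± 0.505 FPKM), Babam1 and Ushbp1 (1059 bases; 22.2 ± 2.02 and 3.49 ± 0.624 FPKM) and Tsen54 and Caskin2 (1094 bases; 2.08 ± 0.406 and 1.87 ± 0.694 FPKM).

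In the 142 pairs of a coding and a noncoding gene, the RNA was usually the weaker side. The noncoding genes were 60 antisense RNAs, 41 processed transcripts, 23 lincRNAs, 17 annotated bidirectional promoter RNAs and 1 sense intronic RNA. Their median was 0.386 FPKM, against 3.55 FPKM for their coding partners, and 34 reached 1 FPKM. Of 114 pairs tested, the noncoding side was lower in 85, higher in 7 and not called in 22 by limma, with a median noncoding minus coding difference of -2.11. The distant pairs were alike, with 42 lower and 1 higher of 58 and a median of -2.39. A pair was tested when either side reached 1 FPKM, which only 34 of the 142 noncoding sides did, and 24 of 66 in the distant pairs. Most tested pairs thus passed the filter through the coding side alone, and their noncoding side had to be lower. These counts are therefore no result about the members. Both sides reached 1 FPKM in 29 head-to-head pairs, for which the direction was not counted.

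The exceptions included RNAs more abundant than their coding partner. Those below were named for a high noncoding side, which favours this direction, so their differences are given without a p-value. Bcat2, a branched-chain aminotransferase, had 0.0775, 0.135 and 8.33 FPKM, nearly all of it in replicate 3, against 136, 119 and 94.8 FPKM for the antisense RNA 0610005C13Rik. Their difference of -5.69 (SE 0.79) was -3.73 with all first exons and -3.15 with last exons. Eno3, the muscle enolase, had 0.604, 1.11 and 2.01 FPKM on the plus side, against 25.5, 25.3 and 25.3 FPKM for the lincRNA Gm12319. The RNA was higher, with a difference of -3.61 (SE 0.24), and the call ended with the closest exons alone (-1.52).

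Gene groups differed in how many of their genes stood in pairs, beside 12.4% of all genes with a first exon. The share was 29.4% for DNA repair and replication (15 of 51), 28% for mitochondrial ribosomal proteins (21 of 75), 26.9% for chaperones (7 of 26) and 25.9% for respiratory chain subunits and assembly factors (21 of 81). It was 21.2% for aminoacyl-tRNA synthetases (7 of 33), 21.1% for purine and pyrimidine synthesis (4 of 19) and 20% for cytosolic ribosomal proteins (15 of 75). Proteasome subunits (6 of 38, 15.8%) and enzymes of cholesterol synthesis and fatty acid oxidation (5 of 34, 14.7%) were near the background. None of 43 secreted plasma protein genes and none of 55 cytochrome P450 genes of families 1 to 4 stood in a pair. Pzp, a secreted protein outside the first of these lists, did. The shares are counts of positions and were not tested.

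**Figure D5:**
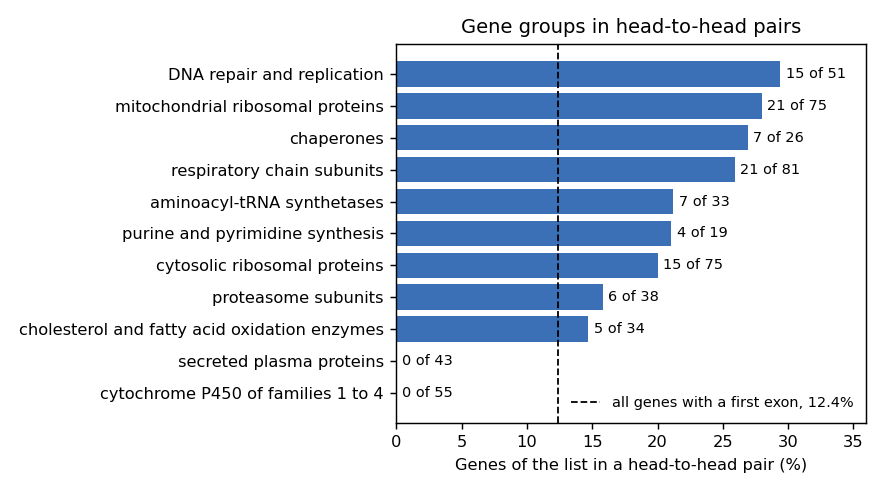
Share of the genes of each list with a first exon that stood in a head-to-head pair, with the counts beside the bars and the share over all genes with a first exon as a dashed line. DNA repair and replication genes are at the top with 29.4%, and secreted plasma proteins and cytochrome P450 genes are at 0.

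The counts of calls for these groups stand beside those of all coding genes in tested pairs, of which 41.2% were called higher than their partner and 34.7% lower. In pairs with both sides at 1 FPKM or more the shares were 35.2% and 33.1%. A pair was tested when either side reached 1 FPKM, so a group of well-expressed genes enters more often as the higher side, and no difference between a group and all coding genes was tested. Respiratory chain genes were called higher in 16 of 21 tested pairs and lower in 2, and in 10 and 2 of the 15 with both sides at 1 FPKM. Lrrc41 averaged 5.63 ± 0.452 FPKM, against 165 ± 19.7 FPKM for Uqcrh, a subunit of complex III (SD, n = 3 each). The difference was -4.64 (SE 0.17). Ndufb9, a complex I subunit, averaged 165 ± 11.5 FPKM, against 4.39 ± 0.374 FPKM for Tatdn1 (SD, n = 3 each), a difference of 4.94. Both were named after their values were seen. Ndufa7, another complex I subunit, had 49.9, 44.2 and 41.2 FPKM, against 22.9, 10.9 and 24.7 FPKM for the ribosomal protein gene Rps28, a difference of 1.24 (SE 0.27, adjusted p = 0.01) by limma that was 0.45 with last exons. Mitochondrial ribosomal protein genes were called higher in 12 of 19 tested pairs and lower in 4, and in 7 and 2 of the 12 with both sides at 1 FPKM. Mrps11 and Mrpl46, both on the list, are among the 19 and the 12 but count as neither. Mrps11 averaged 4.70 ± 1.48 FPKM, against 13.2 ± 1.35 FPKM for Mrpl46, the pair with both genes on that list, a difference of -1.35 (SE 0.26, adjusted p = 0.0062) by limma. Mrps27 and Ptcd2, a mitochondrial RNA-binding protein, differed by 0.15 (-0.38 to 0.68), with a sign that turned without replicate 1.

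Cytosolic ribosomal protein genes were called higher in 11 of 13 tested pairs and lower in 1, and in 7 and 1 of the 9 with both sides at 1 FPKM, beside the shares of all coding genes above. Fau, which codes for a ubiquitin-like fusion with a ribosomal protein but was not on the list, had 320.2, 215 and 228 FPKM, against 14.1, 14.7 and 12.5 FPKM for Mrpl49, a difference of 4.09 (SE 0.18, adjusted p = 4.69e-05) by limma. Rpl18 had 112, 75.7 and 64.3 FPKM, against 9.88, 15.6 and 10.7 FPKM for the sphingosine kinase Sphk2, a difference of 2.69 that was -0.32 for the closest exons. Lias, the lipoic acid synthase, averaged 10.6 ± 1.46 FPKM, against 43.0 ± 7.69 FPKM (SD, n = 3 each) for Rpl9. Rps25 varied widely, with 59.98, 1.14 and 6.69 FPKM, against 11.9, 8.75 and 11.4 FPKM for Trappc4, and the difference of -0.21 (-2.54 to 2.12) turned sign without replicate 2 (0.77), without replicate 3 (0.027) and with all first exons (1.48). It was called at -1.44 without replicate 1 and at -3.28 with last exons. Ribosomal protein genes have many processed copies, so their values are uncertain.

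For chaperones the list gene was called higher in 5 of 6 tested pairs and lower in 0, and in 3 and 0 of the 4 with both sides at 1 FPKM, the remaining pair being Hspe1 and Hspd1. Cct3, a subunit of the cytosolic chaperonin, had 22.2, 19.0 and 30.2 FPKM, against 3.74, 3.23 and 2.69 FPKM for Tsacc, a difference of 2.54 (SE 0.24, adjusted p = 0.000489) by limma. Its relatives Cct5 and Cct7 were called against Fam173b (-3.20) and Pradc1 (3.18), but both turned sign with last exons, to 2.28 and -1.90. The closest exons alone gave 0.95 for Fam173b and Cct5. Synthetase genes were called higher in 5 of 7 pairs and lower in 1, and in 3 and 1 of the 5 with both sides at 1 FPKM. Fars2, the mitochondrial phenylalanyl-tRNA synthetase, averaged 9.39 ± 0.878 FPKM, against 4.15 ± 0.0831 FPKM for Lyrm4, a difference of 1.01 (SE 0.18, adjusted p = 0.00464) by limma that was -2.05 for the closest exons. Terf2ip, a telomere protein, averaged 3.48 ± 0.337 FPKM, against 14.4 ± 4.68 FPKM for the lysyl-tRNA synthetase gene Kars.

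DNA repair and replication genes were called higher in 5 and lower in 5 of 13 tested pairs, and in 1 and 2 of the 6 with both sides at 1 FPKM. Purine and pyrimidine synthesis genes stood in 3 tested pairs, of which 1, Paics and Ppat, had both genes on the list and counts as neither. Against a partner outside the list they were called higher in 0 and lower in 2. Xrcc6, the Ku70 end-binding protein, had 5.14, 5.44 and 5.80 FPKM, against 8.90, 10.1 and 8.28 FPKM for Desi1, a difference of -0.64 (SE 0.18, adjusted p = 0.0237) by limma that lost its call whichever of the 3 libraries was left out. Apex1, the abasic site endonuclease, had 5.84, 8.61 and 11.5 FPKM, against 3.40, 3.63 and 3.86 FPKM for Osgep, a tRNA-modifying enzyme, a difference of 1.02 (SE 0.22, adjusted p = 0.0095) by limma that was lost without replicate 2 or 3 and for the closest exons. Umad1 and Rpa3, a subunit of the single-strand binding complex, differed by -0.12 (-0.65 to 0.41), with a sign that turned without replicate 1 (0.034). Lsm3, a splicing factor, and Xpc, the damage sensor of nucleotide excision repair, differed by 0.81 (SE 0.28, adjusted p = 0.0469) by limma, a call lost under 5 of the alternatives.

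Proteasome genes were called higher in 3 of 6 tested pairs and lower in 1, and in 2 and 0 of the 4 with both sides at 1 FPKM. Enzymes of cholesterol synthesis and fatty acid oxidation were called higher in 2 of 4 and lower in 0, and in 1 and 0 of the 3 with both sides at 1 FPKM. Hadhb and Hadha, both on that list, are among the 4 and the 3 but count as neither. Psmc5, an ATPase of the proteasome base, averaged 39.3 ± 4.73 FPKM, against 6.51 ± 0.748 FPKM for Ftsj3, a ribosome assembly factor (SD, n = 3 each), a difference of 2.42 (SE 0.19, adjusted p = 0.000245) by limma. Psma2, a core particle subunit, averaged 19.8 ± 1.60 FPKM, against 3.81 ± 0.405 FPKM for Mrpl32, a difference of 2.12 (SE 0.18, adjusted p = 0.000341) by limma that was 4.34 for the closest exons. Psmc2 was listed at 0, 32.7 and 29.2 FPKM, against 3.72, 3.64 and 3.43 FPKM for Dnajc2, a ribosome-associated chaperone, and its value of 0 in replicate 1 decided the test, since the difference was 1.13 without a call and 2.82 with one when that library was left out.

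In lipid metabolism, Nsdhl, a sterol dehydrogenase of cholesterol synthesis, had 29.3, 20.5 and 27.1 FPKM, against 7.91, 8.05 and 3.32 FPKM for the centrin Cetn2, a difference of 1.91 (SE 0.32, adjusted p = 0.00375) by limma. Mvk, the mevalonate kinase, had 10.3, 4.44 and 11.1 FPKM, against 9.25, 6.83 and 5.62 FPKM for Mmab, an enzyme of cobalamin metabolism. These overlapped, with a difference of 0.16 (-0.63 to 0.96) that was -0.19 without replicate 3. The gene 4930579G24Rik, of no stated function here, was listed at 0, 0.642 and 0.277 FPKM, against 56.3, 88.1 and 68.1 FPKM for Etfdh, which passes electrons from fatty acid oxidation to ubiquinone. Abcg8 and Abcg5, which together form the sterol exporter of hepatocytes and were named after their values were seen, start 32 bases apart. Abcg8 had 16.2, 20.1 and 33.0 FPKM, against 35.0, 39.2 and 33.7 FPKM for Abcg5, and the difference of -0.67 (SE 0.26, adjusted p = 0.0607) was not called by limma (95% interval -1.34 to -0.01).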

How the data were processed

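RNA sequencing of 3 normal mouse liver libraries was used. Per the file headers, each transcript event carries an FPKM, which the authors computed. Per the submitters' processing notes, the tools were HISAT2 2.0.1, cutadapt 1.9.1, DESeq2 and HTSeq 0.6.1 with the build mm9, without roles. What made the tables is not given in the sources. The positions were read as GRCm38, since a shift of 1000 bases left 0.00434% exact matches to GENCODE M21 first exons. The tables give no counts, so depth is unknown.

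First exons were given to genes by exact position, then splice site, then identifier, because the identifiers mark loci that can hold several genes. Of 1399 opposed exon pairs within 1000 bases, 10 with the same identifier and 69 with a missing one were left out. The difference of log2(FPKM + 1) of the sides, a pseudocount of 1, was fitted in limma 3.58.1 (R 4.3.3; intercept, trend, robust) for pairs up to 10000 bases apart with a mean of 1 FPKM on at least 1 side, with Benjamini-Hochberg adjustment at 0.05. On simulated data for the 1205 pairs, 93.9% of differences of 1 and 100% of differences of 2 and 4 were recovered, and 1.09% of unchanged pairs were called. The simulated noise was normal with the smoothed spread at each level, and 1005 pairs were unchanged, whereas 77.7% of the real pairs were called. Pairs of wide spread, such as Trappc4/Rps25 (SD of the difference 2.25), were not represented, so recovery in the real data may be lower. All 11288 promoter windows that could be checked began with the letters of the GENCODE transcript at that start.

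The members and gene lists were chosen with earlier results of these data known. Pairs were named by rule: textbook pairs, the 10 with the highest lower side, the 5 most different in each direction, the 5 closest in level above 10 FPKM, the 5 shortest, the 3 highest noncoding sides, the 3 on each side of the limit, and up to 4 per gene list. A few pairs that the rule names are not reported here. Alternatives changed the pseudocount, the filter, the exons summed, the variance model, the distance limit and the libraries.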

Additional observations from a re-analysis of the deposited data

How the results depend on the processing

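Over 63 named pairs and 11 alternatives, 609 of 665 values kept direction and side of the threshold, 24 lost the call, 10 gained it and 22 changed sign. The last exon alternative was chosen after seeing the data. Calls without 1 replicate ranged from 457 to 501, those with the plus side higher from 197 to 216 and those with the minus side higher from 258 to 285. Refitted on pairs with both sides at 1 FPKM or more alone, 272 were called, where the fit to all pairs called 281 of the same 408, and 121 of the 272 had the plus and 151 the minus side higher. The number of pairs was 459 with 5′ ends listed in all 3 libraries, and 687 to 722 without 1 replicate. The median absolute difference of 1.64 was 2.62 with a pseudocount of 0.1, 1.24 with both sides at 1 FPKM, 1.48 with no filter, 1.72 for the closest exons, 1.78 for last exons and 1.67 to 1.74 without 1 replicate. The mean correlation of -0.0939 was -0.134 with a pseudocount of 0.1, 0.0283 with both sides at 1 FPKM, 0.0293 with no filter, -0.0595 for all first exons, -0.123 for the closest exons, -0.0746 for last exons and -0.104 to -0.0972 without 1 replicate. The share with the same library highest was 49.7% to 52.0% when only 2 libraries were left. Unrelated sides would give 50% if both libraries were equally often the higher.

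With last exons, 300 of 418 pairs tested by both were called by both, 264 in the same and 36 in the opposite direction. Some pairs had the same difference in first and last exons, as did Bhmt2/Dmgdh (1.02162) and Mrpl49/Fau (4.09314). For these the last exons were not a separate measurement, so the 264 are not independent support. Sign changes with last exons were Ndufs1/Eef1b2 at -4.28, Emg1/Phb2 at -4.82, Idh3g/Ssr4 at -1.56, Cct5/Fam173b at 2.28, Gm4285/Tpt1 at -1.13, Pradc1/Cct7 at -1.90, Psmb9/Tap1 at -3.36 and Rnf5/Agpat1 at 2.22. With the closest exons they were Tmem176b/Tmem176a at 4.16, Sphk2/Rpl18 at -0.32, Lyrm4/Fars2 at -2.05, Cct5/Fam173b at 0.95 and Ppat/Paics at -1.50. With all first exons they were Idh3g/Ssr4 at -0.022, Trappc4/Rps25 at 1.48 and Psmb9/Tap1 at -0.29. Without 1 replicate, values ranged from -0.076 to 0.33 for Idh3g/Ssr4, from -1.44 to 0.77 for Trappc4/Rps25 (0.027 without replicate 3), from -0.0016 to 0.32 for Ptcd2/Mrps27, from -0.19 to 0.50 for Mmab/Mvk and from -0.25 to 0.034 for Rpa3/Umad1. The cause was not tested. A motif window of 500 bases was not run, since only 300-base windows were at hand, and these stood at each start, not centred between the ends. The sides of a pair were compared within each library throughout. A fit with the replicate number as a block between groups was not possible because all 3 libraries form 1 group. The unknown depth limits what a value of 0 shows.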

Other observations

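Pzp, a secreted alpha-macroglobulin, was the second most abundant gene in a pair. A plus-strand first exon 5 bases away that could not be given a gene was listed at 0.368, 0.492 and 0 FPKM, against 558, 657 and 935 FPKM for Pzp. Adk, the adenosine kinase, had 60.2, 52.4 and 71.0 FPKM in the exon sum that faces Ap3m1, a subunit of an adaptor complex, at 15.6, 13.0 and 13.4 FPKM, and the difference was 2.05 (SE 0.18). Over all its first exons Adk averaged 242 FPKM, so most of its signal came from exons outside the limit. These genes were chosen after their values were seen.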
